A study of Danio rerio with 2 samples.

Results

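Accessible chromatin at genes of the extracellular matrix and its receptors was compared between 1 Npas4l-KO embryo, homozygous for the allele bns297 of npas4l, and 1 WT embryo. The labels name AB as the strain in the growth conditions of both. Both zebrafish embryos were taken whole at the 1-somite stage, without chorion and yolk. Accessibility was read by ATAC-seq, where a transposase tags open chromatin for sequencing, with a single library for each genotype. Npas4l is the bHLH-PAS transcription factor lost in cloche embryos, which lack most endothelial and blood cells, and whole embryos hold all tissues, so a region's value is an average over cell types. The genotypes rest on the labels. With 1 library per genotype there is no replicate check of any difference, no test was possible and no p-value is given.

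The regions described are those whose deposited gene symbol is that of a collagen alpha chain (col, a number, a and a number), a laminin chain (lama, lamb or lamc and a number), an integrin subunit (itga or itgb) or fibronectin (fn1a, fn1b). This rule took 73 of 35854 regions, at 59 of 14589 assigned genes. The deposited table assigned regions to genes close to their transcription start site (TSS), with 99% of distances under 5020 bp. Regions centred within 1 kb of the TSS are called promoter regions here (48 of the 73), and those farther out distal (25 of the 73). By class, 41 regions belonged to 32 collagen genes, 11 to 8 laminin genes, 16 to 14 integrin genes and 2 to the fibronectin genes. The other 3 regions matched by symbol only. The genes col4a3bpa and col4a3bpb encode proteins named for binding a collagen IV chain (the ceramide transfer protein CERT1 in the gene name table), and itgb1bp1 encodes an integrin beta 1 binding protein. A gene name table held 108 gene identifiers with a matching symbol in upper or lower case, of which 53, among them COL4A1, COL4A2, lama4 and ITGB3, had no assigned region analysed here.

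Collagens are triple-helical proteins that form fibrils, networks or fibril-bound linkers. Laminins are heterotrimers of an alpha, a beta and a gamma chain that assemble basement membranes. Fibronectin is a fibrillar glycoprotein, and integrins are heterodimeric alpha and beta receptors that join these ligands to the cytoskeleton. In zebrafish, fibronectin and its receptor integrin alpha 5 act in somite boundary formation, fibronectin in the migration of heart precursors, and the laminins encoded by lama1, lamb1a and lamc1 in the basement membrane around the notochord. In vessels, the matrix proteins among these, not the integrins, make the wall matrix on which endothelial cells rest.

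Values are taken to be normalised read counts that the authors scaled and rounded, and the log2 ratio is that of Npas4l-KO + 1 over WT + 1, so that low regions are understated. The interval in parentheses after a log2 ratio is an exact 95% interval (Clopper-Pearson) for how a region's reads divide between the libraries. Its width reflects counting error alone, PCR copies of a molecule could not be told from separate molecules, and it says nothing on how any pair of embryos would differ. The regions of the table held 7066666 reads in the Npas4l-KO library and 7853828 in the WT library, recovered from the scaled values, and the median region had a value of 94 in both. Coordinates follow the deposited table (GRCz10).

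As a whole, regions of matrix and receptor genes lay near equality, with single exceptions in either direction. Of the 73 regions, 40 had a log2 ratio above 0 and 33 below, and the median was 0.03, against 0.08 over all assigned regions and 0 over all regions. At least 2-fold differences were seen at 5 regions. Those of col1a1a, itgb1b.1, itgb4 and col18a1 were higher in the Npas4l-KO library, and 1 region of col5a2a was lower. All members are regions assigned to a gene, so all assigned regions are the nearest background. Of these, 3.19% were at least 2-fold higher and 1.75% at least 2-fold lower in Npas4l-KO, while over all regions the shares were 3.78% and 4.03%. The 4 higher and 1 lower among the 73 members (5.48% and 1.37%) are thus few regions at shares near those of assigned regions. With the trend between level and log2 ratio removed, the split was 5 higher and 0 lower, as col24a1 came in and col5a2a dropped out. A wider measure is the number of regions whose counting interval lay away from 0. This held for 16 regions on the higher side (21.9%) and 9 on the lower side (12.3%), against 25.3% and 12.0% of all assigned regions and 20.0% and 18.0% of all regions. Some intervals ended close to 0, at 0.002 for col4a3bpb, 0.01 for col27a1b, −0.002 for col11a2 and −0.01 for itga3b. These counts were not repeated under other settings.

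**Figure D1:**
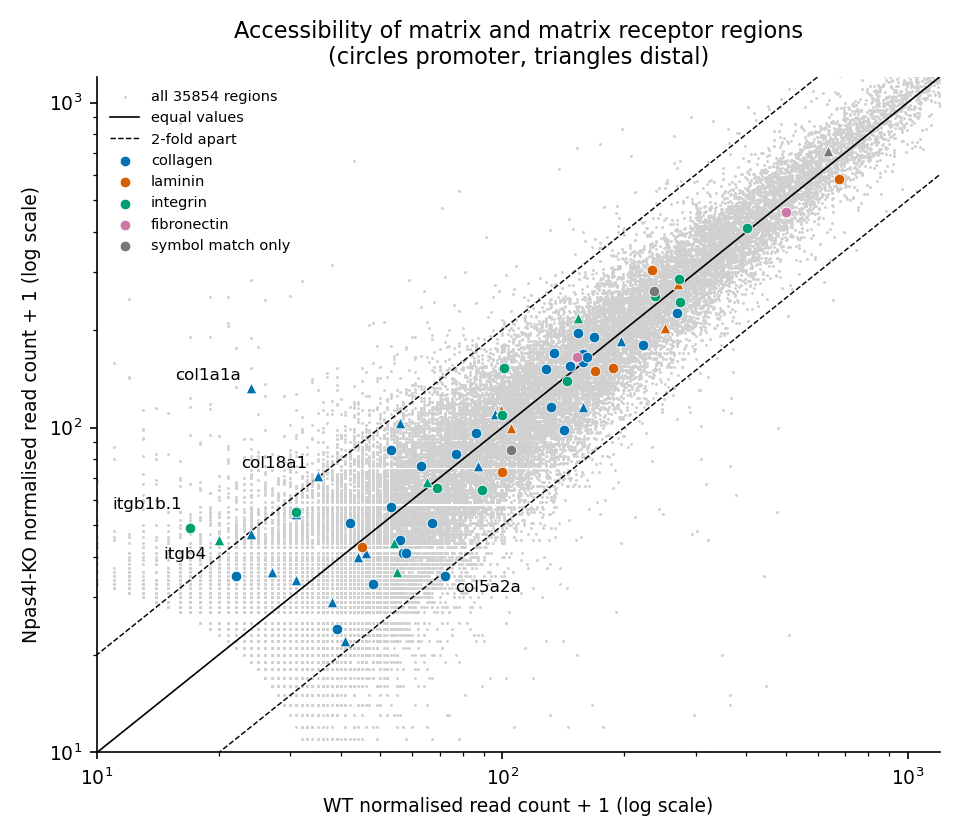
Normalised read count + 1 of each region in the Npas4l-KO library (vertical axis, log scale) against the WT library (horizontal axis, log scale), with all regions of the table within the axis range in grey and the matrix and receptor regions described coloured by class (circles promoter, triangles distal). Most members lie between the dashed 2-fold lines, with col1a1a, itgb1b.1, itgb4 and col18a1 above them and col5a2a below.

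The 5 regions were all of low level. Among the 38 members with a mean of both libraries under 100, 4 were at least 2-fold higher and 1 at least 2-fold lower, while over all regions under that level 6.06% were at least 2-fold higher and 7.11% lower. The 35 members with a mean of 100 or more had none in either direction, with log2 ratios between −0.54 and 0.59, where the background was 1.30% and 0.665%. Both backgrounds by level include unassigned regions, of which 4.35% were at least 2-fold higher and 6.20% lower at any level.

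Promoter and distal regions differed little in their medians. The 48 promoter regions had a median log2 ratio of 0.03 and ranged between −1.04 and 1.53. All promoter regions of the table had a median of 0.11, and 62.9% of them lay above 0, against 54.2% of the members. Counting intervals lay above 0 at 8 member promoters (16.7%) and below 0 at 6 (12.5%), where the background for promoters was 27.2% and 9.67%. The 25 distal regions had a median of 0.07, against 0 for all distal assigned regions, and ranged between −0.90 and 2.46. The top of this range was the col1a1a region alone, and the next was itgb4 at 1.17, inside the promoter range. Of the 25 distal regions, 8 had an interval above 0 (32.0%) and 3 below (12.0%), against 19.7% and 18.7% of all distal assigned regions. At least 2-fold higher values were found at 3 distal members (12.0%, background 4.70%) and at least 2-fold lower ones at 0 (background 3.89%). At promoters these counts were 1 and 1, with a background of 2.68% and 1.02%. Within the gene body, the 12 distal regions had a median of 0.16, and outside it the 13 others had 0.03. With 1 region per gene, the promoter median was 0.08 and the distal one 0.03, so the order of the medians was reversed. Distal members were also shallower, with a median level of 65.5 (mean of both libraries), against 121 for promoter members. Both backgrounds were deeper, with medians of 160 for all promoter regions and 93.5 for all distal assigned regions. The shares of intervals away from 0 depend on depth and were not matched for level. The interquartile range of log2 ratios was 1.07 for members with a mean under 100 and 0.35 for the others. These counts and medians rest on few regions, and whether distal and promoter members differ was not tested.

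**Figure D2:**
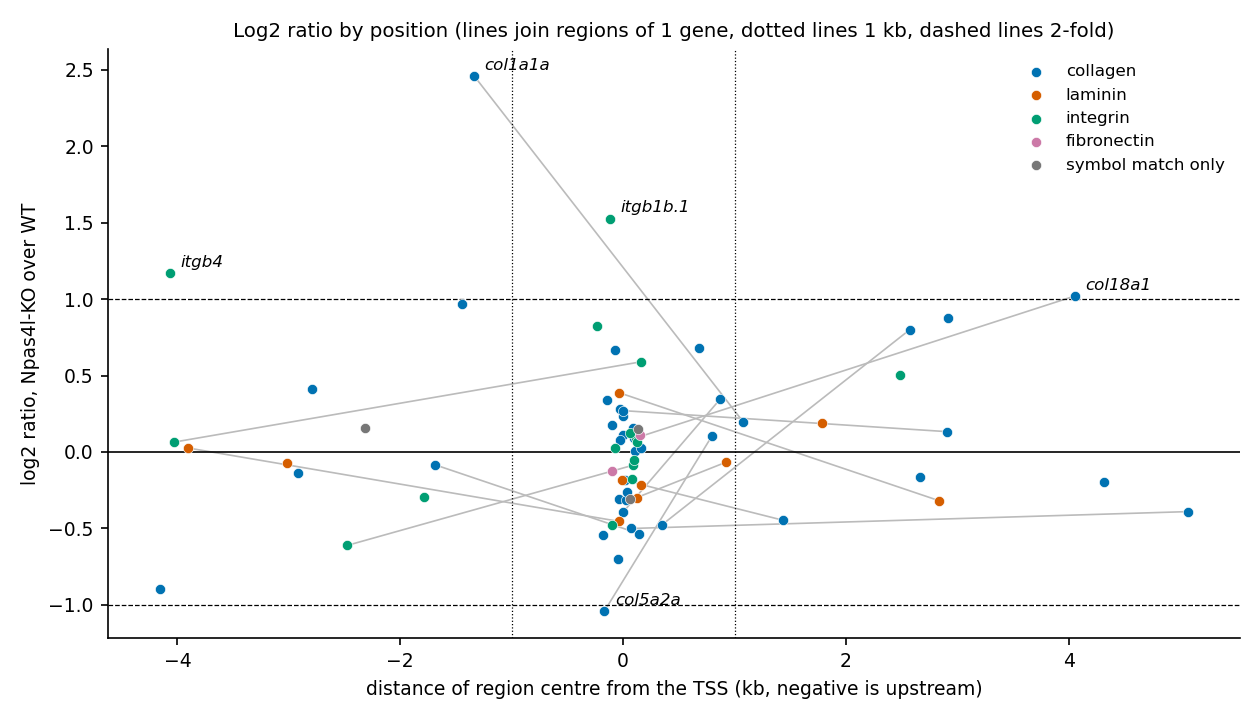
Log2 ratio of Npas4l-KO over WT (vertical axis) against the distance of the region's centre from the TSS of its gene in kb (horizontal axis, negative upstream), with lines joining regions of the same gene. Regions cluster at the TSS around 0, and the col1a1a region 1.337 kb upstream stands apart at 2.46.

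The fibrillar collagens, whose chains form the banded fibrils of connective tissue, held the largest difference of all members. At col1a1a (ENSDARG00000012405), which encodes the alpha 1 chain of type I collagen, the region 1337 bp upstream of the TSS on chromosome 3, 23089007 to 23089316, had 131 normalised reads in the Npas4l-KO library, against 23 in the WT library. This is a 5.50-fold ratio (log2 ratio 2.46, 1.90 to 3.24), and 99.4% of the regions in the same decile of level had a log2 ratio at or below it. The second col1a1a region, 1078 bp inside the gene, had 109 in Npas4l-KO and 95 in WT (0.20, −0.22 to 0.61), so the difference was not shared along the gene at that size.

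Other type I chains had more reads in the Npas4l-KO library at promoter regions centred inside the gene. Of all promoter regions, 27.2% had intervals above 0 and 9.67% below. The paralogue col1a1b had 84 normalised reads in Npas4l-KO and 52 in WT at 680 bp (0.68, 0.19 to 1.23). For col1a2, the alpha 2 chain, the region 873 bp inside the gene had 195 in Npas4l-KO and 153 in WT (0.35, 0.04 to 0.66). The region on the col1a2 TSS went the other way, with 50 in Npas4l-KO and 66 in WT (−0.39, −0.96 to 0.16), within its counting error.

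Type V collagen, which co-assembles with type I and limits fibril diameter, had the only member at least 2-fold lower. At col5a2a (ENSDARG00000031678), on chromosome 9, 42894605 to 42894973, the region 168 bp upstream of the TSS had 34 normalised reads in Npas4l-KO and 71 in WT, 2.06-fold lower (−1.04, −1.71 to −0.45). The log2 ratio was −0.96 with a pseudocount of 5, so this region passes the 2-fold rule by a narrow margin. The other col5a2a promoter region, 797 bp inside the gene, had 56 in Npas4l-KO and 52 in WT (0.11, −0.44 to 0.70). The col5a3a promoter had 34 in Npas4l-KO and 21 in WT (0.67, −0.11 to 1.58), and the intragenic col5a1 region 75 in Npas4l-KO and 86 in WT (−0.20, −0.68 to 0.25). Apart from the region upstream of col5a2a, every assigned type V interval included 0. An unassigned region 25.5 kb upstream of col5a3a had 19 in Npas4l-KO and 40 in WT (−1.04, −1.96 to −0.25). Another, 7.38 kb inside col5a1, had 22 in Npas4l-KO and 32 in WT (−0.52, −1.37 to 0.31).

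Chains of types II and XI, which build cartilage fibrils and the notochord sheath, lay within or near counting error at their TSS. The promoter of col2a1a had 75 normalised reads in Npas4l-KO and 62 in WT (0.27, −0.24 to 0.77), and its distal region 33 in Npas4l-KO and 30 in WT. At col11a2 the promoter, the most accessible fibrillar region with 47.7 reads per 100 bp in Npas4l-KO and 57.2 in WT, held 224 normalised reads in Npas4l-KO and 269 in WT (−0.26, −0.53 to −0.002). The promoter of col11a1a had 82 in Npas4l-KO and 76 in WT. In col11a1b the regions diverged, with 40 in Npas4l-KO and 56 in WT at 350 bp (−0.48, −1.10 to 0.13) and 53 in Npas4l-KO and 30 in WT at 2573 bp (0.80, 0.16 to 1.51).

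Among the minor fibrillar collagens, the region 1444 bp upstream of col24a1 held 46 normalised reads in Npas4l-KO and 23 in WT, just inside the 2-fold limit (0.97, 0.27 to 1.81). Type XXVII chains are expressed in the zebrafish notochord. The col27a1a regions had 40 in Npas4l-KO and 57 in WT at the promoter (−0.50, −1.13 to 0.11) and 28 in Npas4l-KO and 37 in WT in the gene (−0.39, −1.18 to 0.35), neither beyond counting error. The promoter of col27a1b had 169 in Npas4l-KO and 133 in WT (0.34, 0.01 to 0.68), an interval that overlaps that of the col27a1a promoter. Across all 19 fibrillar regions the median log2 ratio was 0.13, with 6 intervals above 0 (31.6%) and 2 below (10.5%), where all assigned regions had 25.3% and 12.0%.

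Network-forming collagens build sheets, type IV being the core of every basement membrane. The type IV genes col4a5 and col4a6 stand head to head on chromosome 7, with TSSs 732 bp apart, and each had a promoter region of its own. That of col4a6, 50827117 to 50827516, had 158 normalised reads in Npas4l-KO and 157 in WT (0.01, −0.32 to 0.34), and that of col4a5, 50827942 to 50828397, had 115 in Npas4l-KO and 131 in WT (−0.19, −0.57 to 0.18). Both intervals included 0, while the col4a5 region 1431 bp inside the gene had 115 in Npas4l-KO and 157 in WT (−0.45, −0.81 to −0.09). Of 4 unassigned regions nearest to col4a5, 1 had an interval below 0 and 1 above. Of 3 nearest to col4a6, 1 had an interval below 0 and 0 above. Over all unassigned regions the shares were 23.7% below and 15.0% above. The promoter of col8a1a, a short-chain collagen, had 23 in Npas4l-KO and 38 in WT (−0.70, −1.50 to 0.10), and the region upstream of col10a1a 35 in Npas4l-KO and 26 in WT (0.42, −0.35 to 1.20). Such low values leave wide intervals.

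FACIT collagens, which sit on the surface of fibrils, had the narrowest spread among the collagen classes at assigned regions, with 9 log2 ratios between −0.54 and 0.28. Per region width, the highest levels were at the promoters of both col12a1 paralogues, with 46.0 reads per 100 bp in Npas4l-KO and 39.0 in WT for col12a1a and 37.0 in Npas4l-KO and 32.7 in WT for col12a1b. In normalised reads these were 150 in Npas4l-KO and 127 in WT for col12a1a and 189 in Npas4l-KO and 167 in WT for col12a1b. At col14a1a the promoter had 178 in Npas4l-KO and 221 in WT (−0.31, −0.61 to −0.02), the only assigned FACIT interval that lay away from 0. The region upstream of col14a1b had 39 in Npas4l-KO and 43 in WT. Type IX chains are partners of type II fibrils. The col9a1a promoter had 50 in Npas4l-KO and 41 in WT, the region inside col9a2 40 in Npas4l-KO and 45 in WT, and the col9a3 promoter 44 in Npas4l-KO and 55 in WT, all within counting error. The symbol col19a1 stood for 2 gene identifiers whose TSSs lie 176418 bp apart, with 95 in Npas4l-KO and 85 in WT at the first and 32 in Npas4l-KO and 47 in WT at the second (−0.54, −1.26 to 0.13). An unassigned region 8.15 kb upstream of col12a1b had 54 in Npas4l-KO and 20 in WT (1.39, 0.70 to 2.27). Unassigned intervals lay below 0 at 1 of 3 nearest to col14a1a and 1 of 2 nearest to col19a1. Those nearest to col12a1a and col14a1b included 0. Over all unassigned regions the shares were 23.7% below and 15.0% above.

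The remaining collagens included both multiplexins, which are basement membrane collagens with a cleavable endostatin-type domain found around vessels. At col18a1 (ENSDARG00000036558), on chromosome 9, 42023755 to 42024004, the region 4054 bp inside the gene had 70 normalised reads in Npas4l-KO and 34 in WT, a 2.03-fold ratio (1.02, 0.45 to 1.68), while the promoter had 167 in Npas4l-KO and 157 in WT (0.09, −0.23 to 0.42). With a pseudocount of 5 the intragenic log2 ratio was 0.94, under the 2-fold limit. Of 5 unassigned regions nearest to col18a1, 1 had an interval below 0 and 0 above, against 23.7% and 15.0% of all unassigned regions. The lower one lay 27.5 kb upstream, with 17 in Npas4l-KO and 43 in WT (−1.29, −2.26 to −0.49). For col15a1b the promoter was lower in Npas4l-KO, with 97 in Npas4l-KO and 141 in WT (−0.54, −0.93 to −0.15), and the region 1690 bp upstream had 184 in Npas4l-KO and 195 in WT (−0.08, −0.38 to 0.21). The type VI chains, which form beaded microfibrils, had 102 in Npas4l-KO and 55 in WT inside col6a1 (0.88, 0.40 to 1.38) and 154 in Npas4l-KO and 146 in WT at the col6a2 promoter. The promoter of col7a1, the anchoring fibril collagen of skin, had 164 in Npas4l-KO and 161 in WT, and the region upstream of col28a2a had 21 in Npas4l-KO and 40 in WT (−0.90, −1.77 to −0.13).

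**Figure D3:**
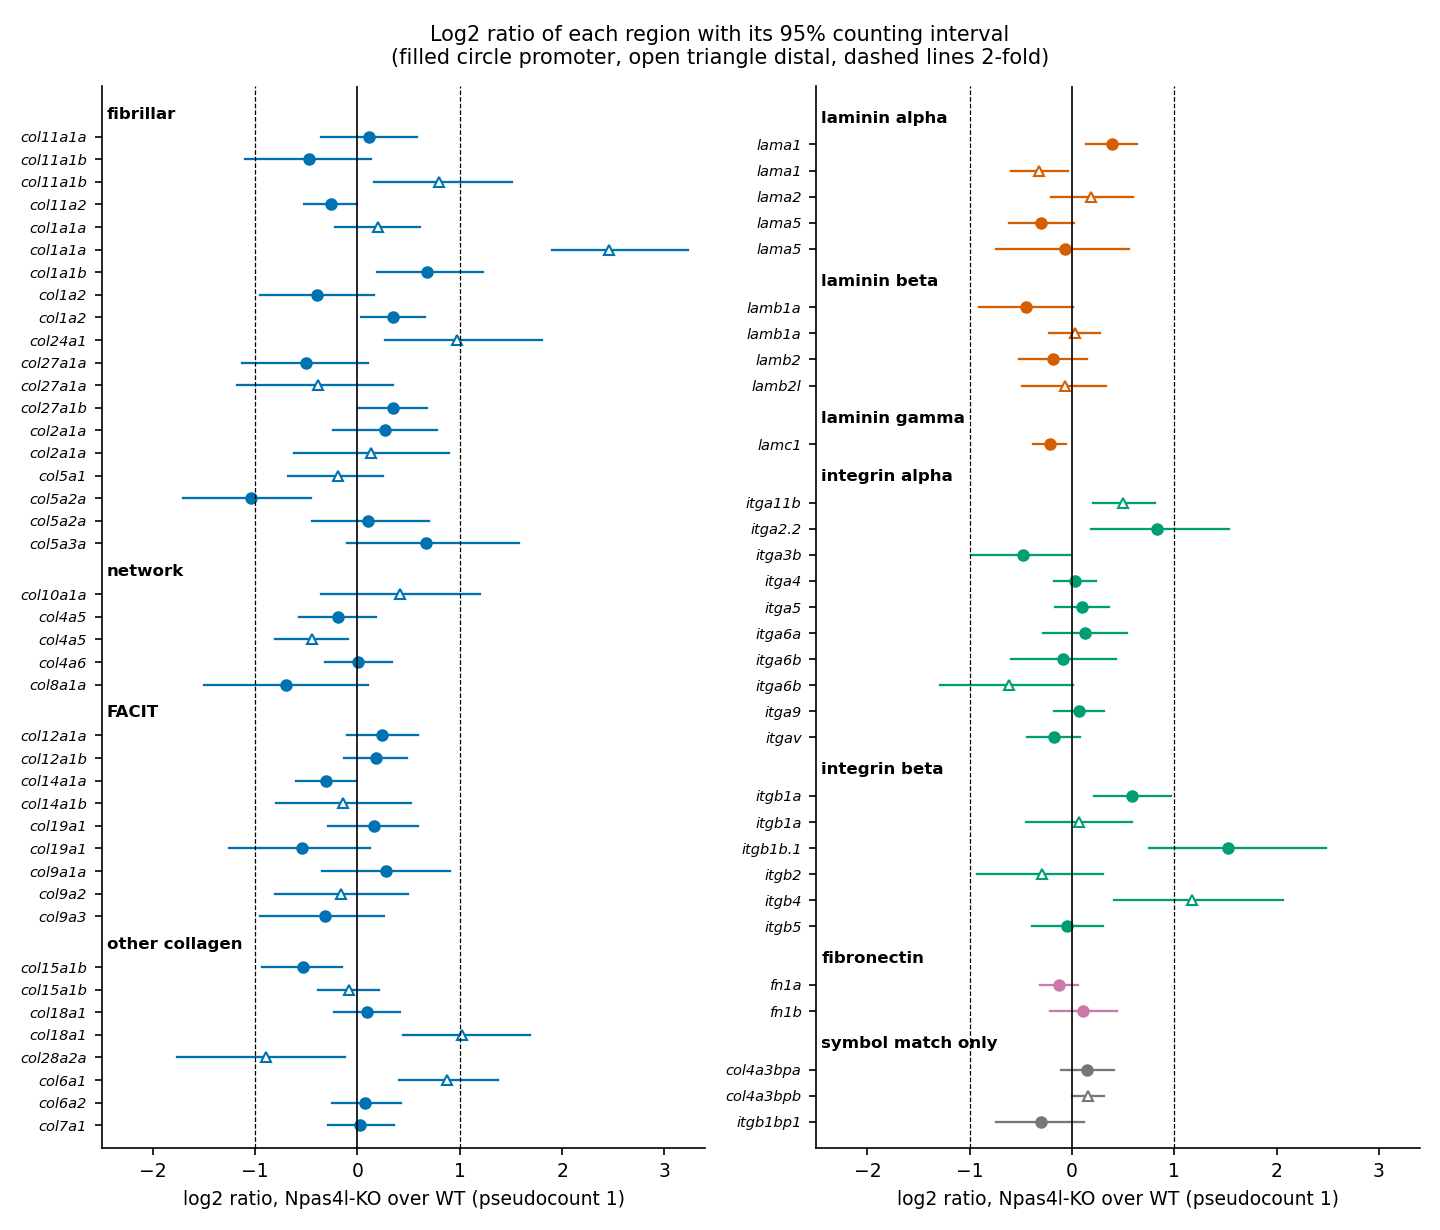
Log2 ratio of Npas4l-KO over WT for each region described (horizontal axis) with its exact 95% counting interval (line), grouped by class, with filled circles for promoter and open triangles for distal regions and dashed lines at 2-fold. The col1a1a region at 2.46 is the only one whose whole interval lies beyond the 2-fold line.

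Assigned laminin regions stayed within 2-fold throughout. The median of their 11 log2 ratios was −0.07, with 7 below 0 (63.6%) and 4 above (36.4%). Over all assigned regions the median was 0.08, with 39.5% below 0 and 59.2% above. With so few regions, whether laminins differ from this background was not tested. The promoter of lama1 (ENSDARG00000102277), on chromosome 24, 41790215 to 41790702, had 305 normalised reads in Npas4l-KO and 233 in WT (0.39, 0.14 to 0.64). A region 2837 bp inside the gene had 201 in Npas4l-KO and 251 in WT (−0.32, −0.59 to −0.04), so that the intervals of these regions lay on opposite sides of 0. The lamb1a promoter had 72 in Npas4l-KO and 99 in WT (−0.45, −0.91 to 0.01), and the more accessible region 3906 bp upstream had 275 in Npas4l-KO and 270 in WT (0.03, −0.22 to 0.27).

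The promoter of lamc1 (ENSDARG00000036279), the gamma 1 chain shared by most laminins, had the most reads of any collagen, laminin, integrin or fibronectin region. On chromosome 2, 35897751 to 35898856, it had 580 normalised reads in Npas4l-KO and 675 in WT, a small difference with a narrow interval (−0.22, −0.38 to −0.06). The promoter of lama5, the alpha chain of many embryonic basement membranes, had 151 in Npas4l-KO and 186 in WT (−0.30, −0.62 to 0.02), and a second region 927 bp inside had 42 in Npas4l-KO and 44 in WT. Both lay within counting error, as did the regions of lama2, lamb2 and lamb2l. For lama2, the muscle laminin chain, the intragenic region had 112 in Npas4l-KO and 98 in WT. The lamb2 promoter had 148 in Npas4l-KO and 168 in WT, and the region upstream of lamb2l 99 in Npas4l-KO and 104 in WT.

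Fibronectin promoters were open in both libraries and differed by less than counting error. At fn1a (ENSDARG00000019815), on chromosome 9, 15453215 to 15453849, the promoter had 459 normalised reads in Npas4l-KO and 500 in WT (−0.12, −0.31 to 0.06). Its level per width, 72.4 reads per 100 bp in Npas4l-KO and 78.9 in WT, was above that of 86.8% of all promoter regions. At fn1b (ENSDARG00000006526), on chromosome 1, 4844779 to 4845441, the promoter had 164 in Npas4l-KO and 152 in WT (0.11, −0.22 to 0.44), or 24.8 reads per 100 bp in Npas4l-KO and 23.0 in WT, above 37.6% of promoters.

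**Figure D4:**
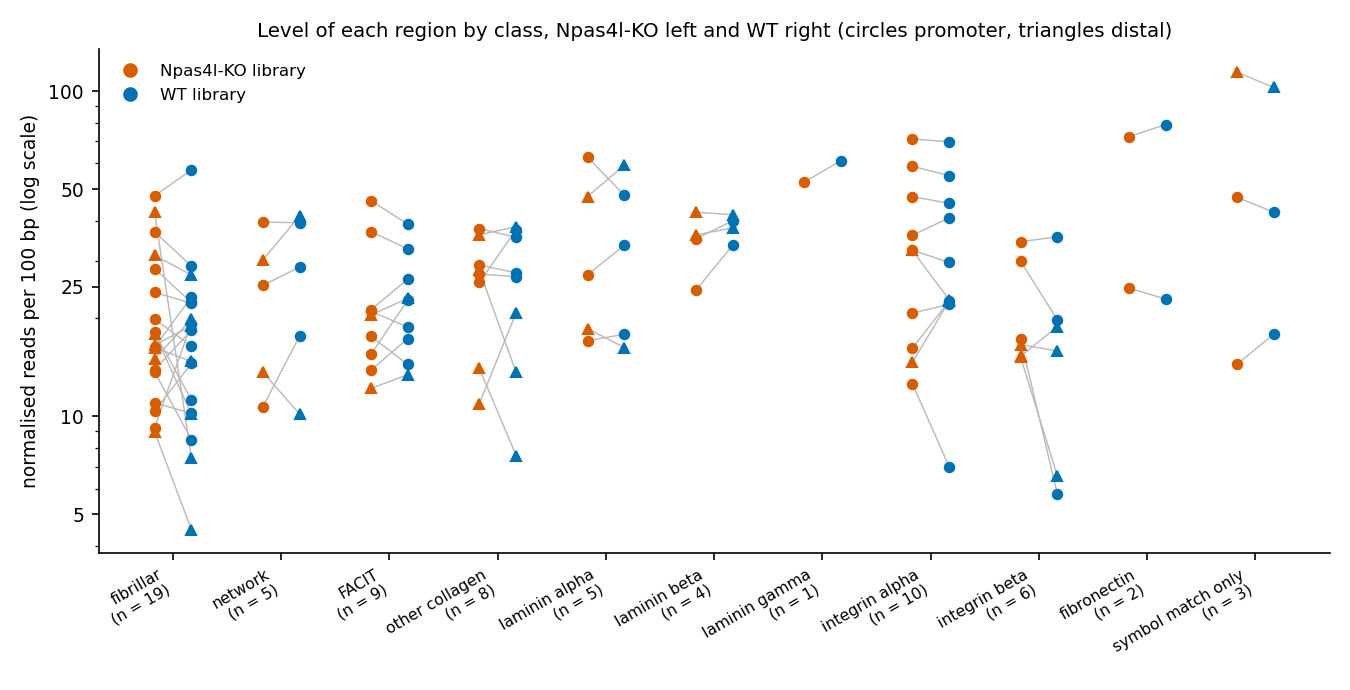
Normalised reads per 100 bp of region width (vertical axis, log scale) for each region by class, Npas4l-KO points on the left and WT points on the right of each class, joined by region. Fibronectin fn1a and integrin itga4 are at 72.4 and 71.3 in Npas4l-KO, above all collagen regions, whose highest is 47.7 at col11a2.

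Integrin alpha subunits help to set, with the beta subunit, which ligand a receptor binds. Receptors that bind fibronectin come first. The itga5 promoter, for the classical fibronectin receptor, had 253 normalised reads in Npas4l-KO and 237 in WT (0.09, −0.16 to 0.36), the itga4 promoter 409 in Npas4l-KO and 401 in WT (0.03, −0.17 to 0.23) and the itgav promoter 242 in Npas4l-KO and 274 in WT (−0.18, −0.44 to 0.07). The itga9 promoter, for a receptor of tenascin and related ligands, had 285 in Npas4l-KO and 272 in WT (0.07, −0.18 to 0.31). These 4 promoters were the deepest of the integrin regions, and the interval of each log2 ratio included 0. Among unassigned regions nearest to these genes, intervals lay below 0 at 2 of 4 for itga5 and 2 of 3 for itga9. At itga9 1 lay above 0, while the 2 of itga4 and the 1 of itgav included 0. Of all unassigned regions, 23.7% had intervals below 0 and 15.0% above.

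Among subunits of laminin receptors, the itga3b promoter had 63 normalised reads in Npas4l-KO and 88 in WT (−0.48, −0.99 to −0.01). For alpha 6, the itga6a promoter had 108 in Npas4l-KO and 99 in WT and the itga6b promoter 64 in Npas4l-KO and 68 in WT. The region 2478 bp upstream of itga6b had 35 in Npas4l-KO and 54 in WT (−0.61, −1.29 to 0.01). Of 2 unassigned regions nearest to itga3b and 2 nearest to itga6a, 1 of each pair had an interval below 0 and 0 above. Over all unassigned regions the shares were 23.7% and 15.0%. The lower one lay 12.6 kb inside itga3b, with 95 in Npas4l-KO and 133 in WT (−0.48, −0.89 to −0.10). At itga6a it lay 11.1 kb inside the gene, with 30 in Npas4l-KO and 64 in WT (−1.07, −1.79 to −0.44). Of the collagen receptor subunits, the assigned itga11b region, 2482 bp inside the gene, had 217 in Npas4l-KO and 153 in WT (0.50, 0.20 to 0.81). An unassigned region 41.4 kb inside itga11b had 48 in Npas4l-KO and 134 in WT (−1.46, its interval below 0), so the gene had intervals on both sides of 0. The itga2.2 promoter had 54 in Npas4l-KO and 30 in WT (0.83, 0.19 to 1.54).

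Integrin beta subunits had 2 of the 5 regions past 2-fold, both higher in Npas4l-KO and both of low level. This is 33.3% of only 6 beta regions. At least 2-fold higher were 3.19% of all assigned regions and 6.06% of all regions with a mean under 100. At itgb1b.1 (ENSDARG00000053232), a paralogue of the beta 1 subunit that pairs with most alpha chains, the promoter on chromosome 2, 43719427 to 43719704, had 48 normalised reads in Npas4l-KO and 16 in WT, a 2.88-fold ratio (1.53, 0.75 to 2.48). The itgb1a promoter, of another beta 1 paralogue and deeper in both libraries, had 151 in Npas4l-KO and 100 in WT (0.59, 0.22 to 0.97), and its region 4027 bp upstream 67 in Npas4l-KO and 64 in WT. Further gene identifiers with the symbol ITGB1 had no assigned region analysed. At itgb4 (ENSDARG00000028507), the partner of alpha 6 in hemidesmosomes, the region 4063 bp upstream on chromosome 8, 13064837 to 13065126, had 44 in Npas4l-KO and 19 in WT, a 2.25-fold ratio (1.17, 0.41 to 2.07). In the level deciles of these regions, 96.0% of regions had a log2 ratio at or below that of itgb1b.1 and 92.5% at or below that of itgb4. The itgb5 promoter, for the vitronectin receptor partner of alpha V, had 138 in Npas4l-KO and 143 in WT, and the region upstream of the leukocyte subunit itgb2 43 in Npas4l-KO and 53 in WT, both within counting error.

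The regions matched by symbol only were col4a3bpa with 262 normalised reads in Npas4l-KO and 236 in WT (0.15, −0.11 to 0.41), col4a3bpb with 709 in Npas4l-KO and 636 in WT (0.16, 0.002 to 0.31), and itgb1bp1 with 84 in Npas4l-KO and 104 in WT (−0.30, −0.74 to 0.12). Without them the median over the members was 0.03.

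Of 14 member genes with 2 assigned regions, 5 had log2 ratios of opposite sign (35.7%), namely col11a1b, col1a2, col5a2a, lama1 and lamb1a. Over all 2193 genes with 2 assigned regions the share was 42.1%, so the members are no exception. At lama1 alone the intervals lay away from 0 on opposite sides (1 of 14, 7.14%, against 5.02% of all such genes). The largest difference between regions of a gene was at col1a1a, where the upstream log2 ratio was 2.26 above the intragenic one. It was followed by col11a1b, with 1.28 between the distal and the promoter region, and col5a2a, with 1.15 between its promoter regions.

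Other genes of matrix assembly and adhesion, from 5 lists of 125 symbols chosen with results of these data known, gave the setting of these values. Of their 87 regions at 70 genes, 43 lay above 0, 43 below and 1 at 0. Of these, 0 were at least 2-fold higher and 2 at least 2-fold lower in Npas4l-KO (2.30%), against 3.19% and 1.75% of all assigned regions. Intervals lay above 0 at 17 (19.5%) and below 0 at 15 (17.2%), against 25.3% and 12.0% of all assigned regions. Those lower were the promoter of thbs4b, a thrombospondin, with 18 in Npas4l-KO and 48 in WT (−1.37, −2.29 to −0.59), and a region inside the fibrillin gene fbn2b, with 35 in Npas4l-KO and 72 in WT (−1.02, −1.68 to −0.43). Basement membrane and linker genes, the partners of laminin and type IV collagen, had the lowest median of the lists, −0.22 over 13 regions, with 1 interval above 0 (7.69%) and 5 below (38.5%). Of the 13 regions 10 were promoters, and all promoter regions had 27.2% above and 9.67% below. The lower ones were at hspg2 (perlecan), with both its regions, agrn (agrin) and the nidogens nid1b and nid2a, and the higher one was at frem2b. The agrn promoter had 312 in Npas4l-KO and 453 in WT (−0.54, −0.75 to −0.32), and the hspg2 promoter 369 in Npas4l-KO and 435 in WT (−0.24, −0.44 to −0.03).

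Integrin adaptors, which link integrin tails to actin, had the highest median of these lists, 0.14 over 18 regions, with 6 intervals above 0 (33.3%) and 3 below (16.7%). As 13 of the 18 were promoters, whose median over the table was 0.11 with 27.2% above and 9.67% below, the list lay near that background. Among them lims1 (PINCH), with 366 normalised reads in Npas4l-KO and 293 in WT at its promoter, and fermt2 (kindlin 2), with 404 in Npas4l-KO and 329 in WT, were higher beyond counting error, as were the second lims1 region, tln2a, parvb and pxna. The lower ones were tln1 (talin 1), with 49 in Npas4l-KO and 79 in WT, lims2, with 137 in Npas4l-KO and 190 in WT, and zyx (zyxin), with 122 in Npas4l-KO and 166 in WT. Enzymes and chaperones of collagen processing had a median of 0.04 over 18 regions, with 3 intervals above 0, at p4ha1b, bmp1b and p3h1 (16.7%), and 0 below. Proteases and their inhibitors had −0.13 over 17 regions, with 2 intervals on each side (11.8%). Other matrix proteins had −0.09 over 21 regions, with 5 intervals on each side (23.8%).

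**Figure D5:**
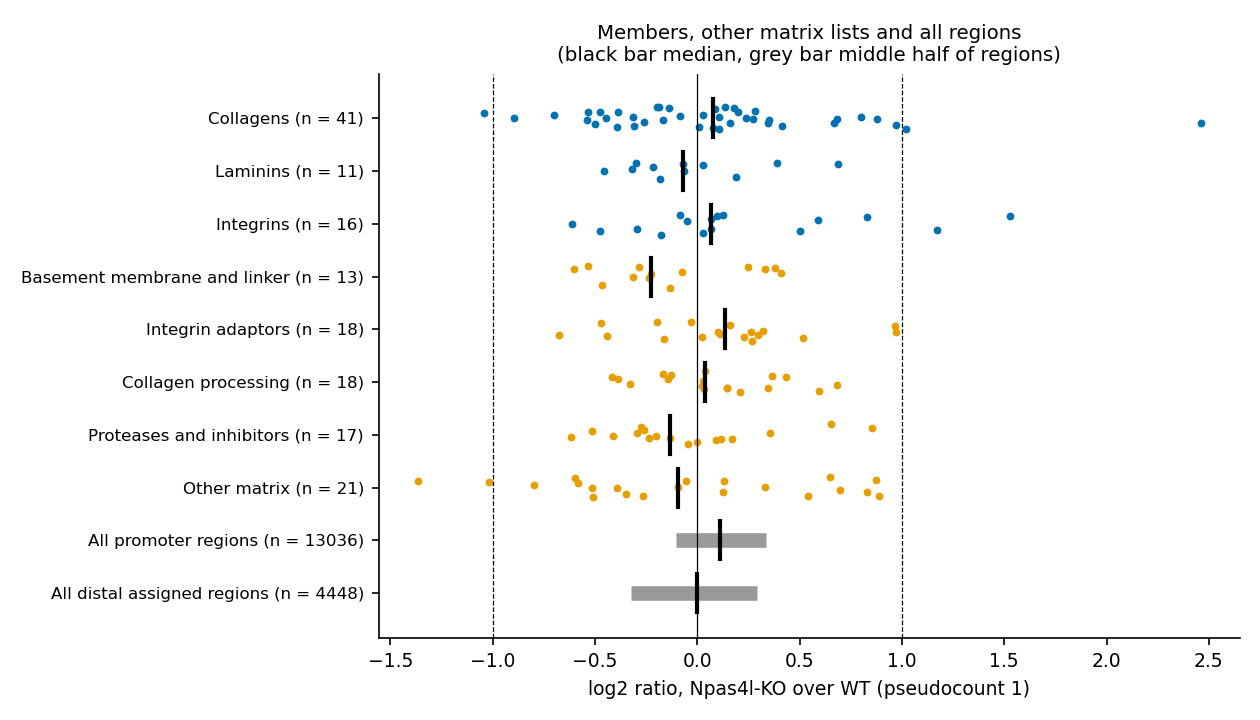
Log2 ratio of Npas4l-KO over WT (horizontal axis) for collagen, laminin and integrin regions (blue points) and 5 lists of other matrix genes (orange points), with medians as black bars, and the interquartile range of all promoter and all distal assigned regions as grey bars. Medians lie between −0.22 for basement membrane and linker genes and 0.14 for integrin adaptors.

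Regions with no assigned gene were also looked at, after the assigned values were seen. Each was given to a collagen, laminin, integrin or fibronectin gene (or a symbol match) if that gene's TSS was the nearest in the table and within 50 kb, which does not show that it acts on that gene. This gave 83 regions with a median log2 ratio of −0.16, of which 61.4% lay below 0, against −0.12 and 58.7% for all unassigned regions. Intervals lay above 0 at 8.43% of them and below 0 at 36.1%, against 15.0% and 23.7% of all unassigned regions. At least 2-fold higher were 5 (6.02%) and lower 9 (10.8%), against 4.35% and 6.20%. The 31 around collagens had a median of −0.06, the 22 around integrins −0.11, the 9 around fibronectins −0.28 and the 18 around laminins −0.37. Of the 18 around laminins, 9 were at lamc1 and 5 at lama5. Intervals lay below 0 at 11 around laminins (61.1%), 10 around integrins (45.5%), 7 around collagens (22.6%) and 2 around fibronectins (22.2%). In the same order, 1, 2, 3 and 0 lay above 0 (5.56%, 9.09%, 9.68% and 0%).

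At lamc1, 9 such regions lay inside the gene, and 8 of them had fewer reads in Npas4l-KO, 7 beyond counting error, where 23.7% of all unassigned regions were lower in this way. Their summed value was 1342 in Npas4l-KO and 1647 in WT. A cluster of 4 lay between 42.4 and 46.6 kb from the TSS, the deepest with 225 in Npas4l-KO and 293 in WT (−0.38, −0.64 to −0.13). The deepest of the 9, at 22.6 kb, had 460 in Npas4l-KO and 502 in WT (−0.13, −0.31 to 0.06). At lama5 all 5 lay below 0, 4 beyond counting error against the same 23.7%, with a summed value of 453 in Npas4l-KO and 608 in WT. Of the promoters, that of lamc1 was lower beyond counting error and that of lama5 was within it. Among the 18 unassigned regions around laminins, 3 were at least 2-fold lower (16.7%) and 0 higher, against 6.20% and 4.35% of all unassigned regions. At lamc1 these had 19 in Npas4l-KO and 40 in WT (−1.04, −1.96 to −0.25) and 15 in Npas4l-KO and 33 in WT (−1.09, −2.15 to −0.21). The one at lama5 had 33 in Npas4l-KO and 67 in WT (−1, −1.67 to −0.39).

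At fn1a 6 regions had a summed value of 374 in Npas4l-KO and 439 in WT, 1 with an interval below 0. Over all unassigned regions 23.7% had such an interval. At fn1b 3 regions had 256 in Npas4l-KO and 309 in WT, and the one 5.33 kb inside the gene had 96 in Npas4l-KO and 165 in WT (−0.78, −1.17 to −0.41), unlike the fn1b promoter. At col1a1a both further regions lay above 0, as the assigned ones did, with 65 in Npas4l-KO and 38 in WT at 7.19 kb inside the gene (0.76, 0.19 to 1.40) and 126 in Npas4l-KO and 100 in WT at 38.2 kb upstream (0.33, −0.07 to 0.71). The lowest log2 ratio among these 83 regions was −1.46, inside itga11b, and the highest was 31.6 kb upstream of itgb1b.1, with 68 in Npas4l-KO and 15 in WT (2.11, 1.37 to 3.07). Another region, 6.38 kb upstream of the same gene, went the other way, with 15 in Npas4l-KO and 37 in WT (−1.25, −2.29 to −0.38).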

How the data were processed

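Chromatin accessibility was measured by ATAC-seq in single whole embryos, 1 library per genotype, grouped by the labels' genotype. Tools in the submitters' processing notes are, by name, deepTools 2.5.4, DESeq, DESeq2 1.14.1, MACS2, Picard 2.9.0, STAR 2.5.3a and Trimmomatic 0.36, with GRCz10 (danRer10) as build. Their roles, the treatment of duplicates, any shift of read ends and the base from which starts count are not given in the sources used here. Each library column the authors deposited is treated as a score, since its whole numbers look like read counts that were scaled and rounded, which no source used here states. Of the Npas4l-KO values examined, 99.96% were whole reads times 1.06505. This factor was the best match found on these same values, and a wrong factor near it would also match most of them. The WT factor was assumed to be the inverse of this, 0.939, and the reads recovered with both served counting intervals and the depths only. The deposited log2 ratio, per the file headers mutant against WT, was recomputed from the values with a pseudocount of 1. Distances are from a region's centre to the TSS, and the fraction of a region inside the gene body is the authors' deposited value.

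Regions were taken by gene symbol, and members and lists were chosen with earlier results of these data known. A single library per genotype allowed no test. Counts used a limit of 2-fold or the exact 95% interval and are read against shares over all, all assigned, promoter, distal or unassigned regions. The lowest mean of a region was 20.5. Named were regions past 2-fold, both fibronectin genes and, by class and position, the regions deepest and with the lowest and highest log2 ratio, and the other members are given by value. Alternatives were a pseudocount of 5, a minimum mean of 50, centring on the median or by level decile, 1 region per gene, promoters up to 500 bp and leaving out symbol-only matches. Adding regions by gene identifier or up to 50 kb away was chosen after seeing the data. The values of 1 gene are not reported here, and it is not drawn by region. Promoter sequences were not used here. The procedure was tested on simulated data. Software was Python 3.11.15 with matplotlib 3.10.9, scipy 1.17.1, pandas 2.3.3 and numpy 2.4.6.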

Additional observations from a re-analysis of the deposited data

How the results depend on the processing

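Members at least 2-fold lower in Npas4l-KO numbered 1, and 0 with a pseudocount of 5, with centring by level decile, or with 1 region per gene. Members at least 2-fold higher numbered 4, and 3 with a pseudocount of 5. They numbered 5 with centring by level decile, and 2 with a minimum mean of 50 or with 1 region per gene. Adding the 83 unassigned regions up to 50 kb away gave 10 lower and 9 higher among 156 regions, a set that mixes assigned and unassigned regions. Lower were 1.75% of all assigned and 6.20% of all unassigned regions, and higher were 3.19% and 4.35%. Over the settings run, medians lay between 0.01 and 0.08 for promoter members, 0.03 and 0.12 for distal members and 0.06 and 0.10 for collagens. Those of laminins lay between −0.13 and −0.02 and those of integrins between 0.04 and 0.08. With 1 region per gene the promoter median was 0.08 and the distal one 0.03, the reverse of their main order. The median of all members lay between 0.02 and 0.08, and was −0.08 with the unassigned regions added. Centring by level decile subtracts −0.18 in the lowest and 0.07 in the highest decile, since shallow regions lay lower in Npas4l-KO. None of the 43 named regions left its counting interval under the pseudocount of 5 or either centring. This is a weak check, since centring on the median subtracts 0 and the other shifts are small beside most intervals. With centring by level decile the sign changed at itga4 (0.03 to −0.02), col4a6 (0.01 to −0.01) and the distal lamb1a region (0.03 to −0.02). No paired analysis was possible because each genotype has 1 library and no replicate numbers link the libraries. Depth limits the shallow regions most, whose intervals span over 1 on the log2 scale, as at col8a1a (−1.50 to 0.10).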
